A study of Mus musculus with 4 samples.

Results

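The interferon response genes are a set of 39 mouse genes that interferon is known to switch on, read here from the RNA of 4 cultures of fetal liver progenitor cells. The set holds 33 genes typical of the type I interferon response, called type I-like below, and 6 GTPases of the guanylate-binding protein (Gbp) and immunity-related GTPase (Irg) families. Members were listed by what they are known for, with earlier results of these data known. A member was read from a probe set that the platform annotation maps to its symbol and no other, and where there were several, from the one with the highest mean signal over the 4 arrays. Of the 39 members, 37 had such a probe set, out of 18193 genes with one in the series. Isg15 and Ifi44 had none, so their expression was not analysed here. Of the 37, 31 exceeded a signal floor of 100.001 on at least 1 array, as did 10679 genes in all. The floor is 20% of the common trimmed mean signal of an array, and values under it have no order. Dhx58, Zbp1, Parp14, Mx1, Mx2 and Cmpk2 were under it on every array.

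The series asks which genes differ between fetal liver progenitor cells transformed by an oncogene and the same kind of cells without one. All 4 cultures lacked p53 (p53-/-), and all grew in medium with 10% fetal bovine serum, dexamethasone, 20 ng/ml EGF and 50 ng/ml HGF. The groups were non-transformed, H-RasV12 (an activated Ras), myr-Akt (Akt anchored to the membrane by a myristoyl tag) and c-Myc (a transcription factor), with 1 Affymetrix array of biotin-labelled cRNA for each. No interferon or other stimulus is named in the labels, which also give no clone number, vector or batch. With 1 array per group there is no spread between replicates and no test, so each difference is between arrays. A difference counts as higher or lower when it reaches 2-fold, and where 1 side is under the floor the fold is a bound, written "at least".

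Type I interferons signal through the receptor chains Ifnar1 and Ifnar2 and the kinases Jak1 and Tyk2 to a complex that holds Stat2 and Irf9 and binds the interferon-stimulated response element. Type II interferon signals through Ifngr1, Ifngr2, Jak1 and Jak2 and acts at the gamma-activated site, and the Gbp and Irg GTPases are classic targets of this branch. Many members answer to both branches, so the split into classes is one of known function. The liver's response to interferon is known for restricting viruses in hepatocytes.

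Markers of other cells were read on the same arrays. Of 13 leukocyte markers, 1 to 3 exceeded the floor on an array, with summed signals of 499.5 on the non-transformed, 912.1 on the H-RasV12, 568.2 on the myr-Akt and 387.7 on the c-Myc array, and Ptprc, Lyz2, Tyrobp and Adgre1 were under the floor on all 4. Cd14 had 209.2, 530.0, 148.2 and 136.0 in the same order, 2.53-fold higher with H-RasV12. Cd68 had 122.1, 131.4 and 110.2 and was under the floor with c-Myc. Csf1r was above the floor with H-RasV12 (145.4) and myr-Akt (119.1) only. Of 8 endothelial markers, 1 or 2 exceeded the floor, with Pecam1 and Cdh5 under it on all 4 and summed signals of 837.9, 271.1, 404.4 and 566.8 in the same order. Cd34 of that list had 540.5 on the non-transformed array and was under the floor elsewhere, at least 5.41-fold lower in each comparison. Egfl7, the other endothelial marker above the floor, went another way, with 175.0, 174.5, 286.2 and 415.5. It differed by 1.00-fold with H-RasV12 and was 1.64-fold higher with myr-Akt and 2.37-fold higher with c-Myc, above the floor on all 4 arrays. Of 9 hepatoblast and hepatocyte markers, 5, 9, 3 and 3 exceeded it, with summed signals of 7900, 24297, 3686 and 3801, and Alb, Afp, Ttr and Hnf4a were over the floor on the H-RasV12 array alone. Foxa2, Krt18 and Dlk1 of the same list were over it on all 4 arrays, and Apoa1 and Krt8 on the non-transformed and H-RasV12 arrays. The 6 biliary and progenitor markers summed to 7712, 13668, 13795 and 7574. The 7 stellate markers summed to 36497, 27968, 19816 and 25574, and the 5 mesothelial markers to 44940, 10183, 27889 and 26834. Acta2 made up 33456 of the stellate sum on the non-transformed array. Of the 5 stellate markers above the floor, 1 was at least 2-fold lower with H-RasV12 (Des, median of the list -0.47, log2). With myr-Akt and with c-Myc 4 were (Des, Pdgfrb, Rgs5 and Pdgfra), with a median of -2.64 in each that is a bound. All 5 mesothelial markers were at least 2-fold lower with H-RasV12, and 1 of 5, Msln, with myr-Akt and with c-Myc. The endothelial, stellate and mesothelial sums, like most members, were highest on the non-transformed array, and the part of these cells in the member differences was not tested. All sums take in signals under the floor, which have no order, and in the endothelial list Cd34 followed the sum and Egfl7 did not. In cultures measured in bulk, fewer cells of a type and less RNA per cell cannot be told apart. As a check of the labels, Myc had a signal of 2285, 1747, 639.7 and 420.6 in the same order, so it was lowest on the array labelled c-Myc, and Akt1 had 1870, 2760, 2834 and 2991. Mouse probe sets need not detect an introduced gene, and directions for the array labelled c-Myc rest on its label.

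All 31 measurable members were above the floor in non-transformed cells. On the H-RasV12 array 24 were, made up of 22 of 25 type I-like members and 2 of 6 GTPases. On the myr-Akt array 14 were (13 type I-like, 1 GTPase), and with c-Myc 12 were (11 type I-like, 1 GTPase). Of all 10679 genes, 10216, 9927, 9512 and 9492 were above it on the non-transformed, H-RasV12, myr-Akt and c-Myc arrays, the same order. Because every member passed the floor through the non-transformed array, a member under the floor elsewhere had to come out lower, and the counts that follow are descriptions.

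Against the non-transformed array, 13 of 31 members were at least 2-fold lower on the H-RasV12 array and 0 were higher, where 6.27% of all genes above the floor were lower and 2.08% higher. With myr-Akt, 24 of 31 members were lower and 0 higher, where 12.7% of all genes were lower and 4.9% higher. With c-Myc, 23 of 31 members were lower and 0 higher, where 11.3% of all genes were lower and 4.42% higher. A 2-fold lower value needs a signal of at least 200.001 on the non-transformed array, so the called genes are the same among the genes that bright, where they make up 13, 24 and 23 of 29 members and 7.41%, 15.0% and 13.4% of all such genes. The median member differed by -0.78 (log2) on the H-RasV12, -1.90 on the myr-Akt and -1.92 on the c-Myc array, where the median of all genes lay at 0.00, -0.02 and 0.00. The medians with myr-Akt and c-Myc fall on members under the floor there (Oasl2 and Gbp3), so they are bounds. The 3 comparisons share the non-transformed array, so a high reading there would lower a member in all of them.

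**Figure D1:**
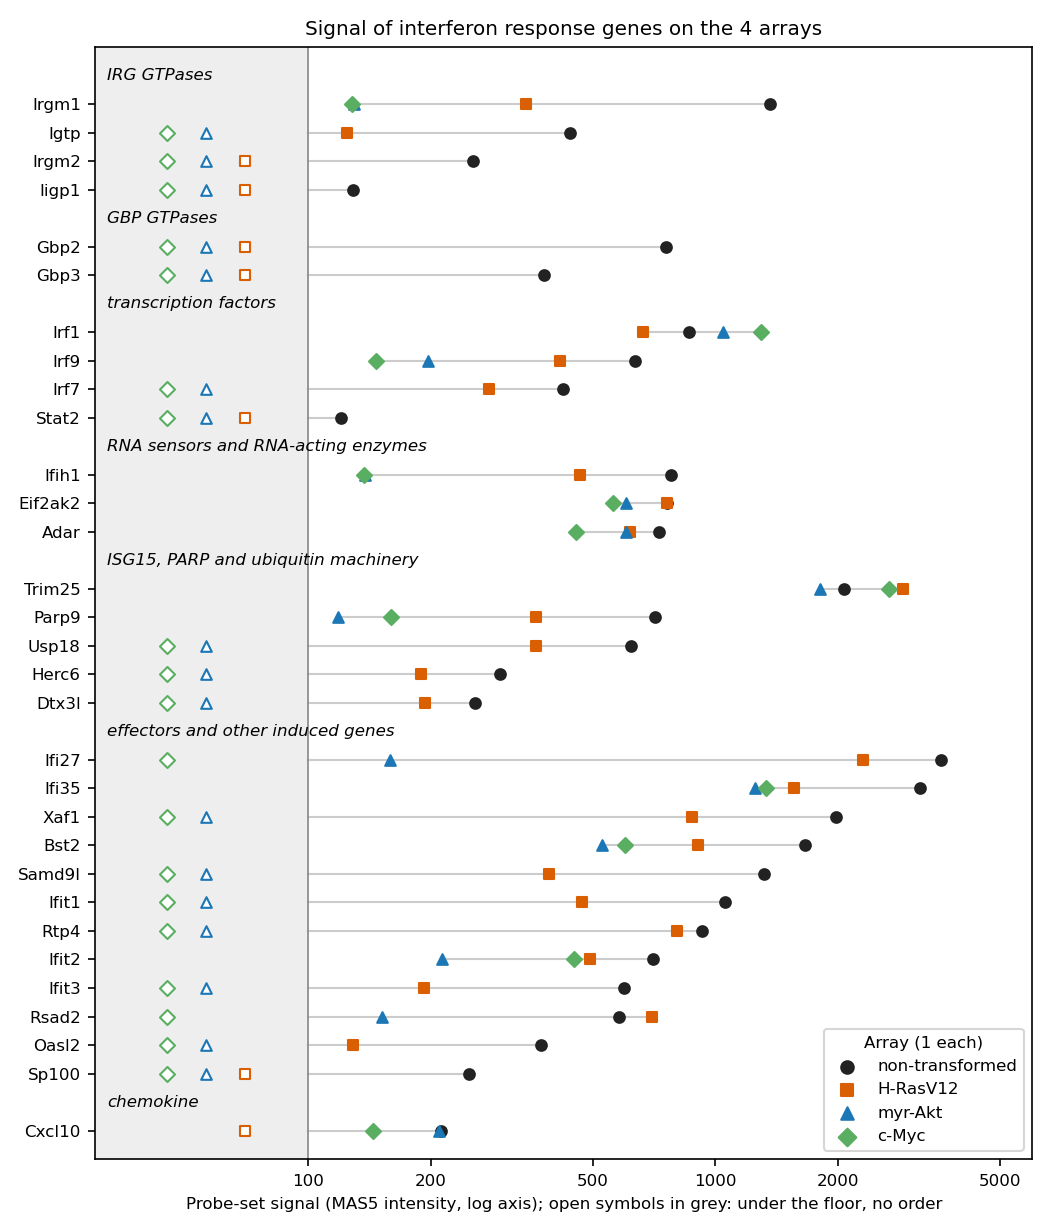
Signal of the 31 measurable members (rows) on the 4 arrays, on a log axis with 1 symbol per array and open symbols in the grey zone for values under the floor of 100.001, where position has no meaning; symbols are to be compared within a row, since probe sets differ in brightness. All 31 members lie above the floor on the non-transformed array, against 24, 14 and 12 on the H-RasV12, myr-Akt and c-Myc arrays.

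The counts of the GTPases and the type I-like members were most unlike on the H-RasV12 array. There, 5 of 6 GTPases were at least 2-fold lower (median -1.87) against 8 of 25 type I-like members (median -0.64). On the myr-Akt array 5 of 6 GTPases (median -2.03) and 19 of 25 type I-like members (median -1.73) were lower, and on the array labelled c-Myc 5 of 6 (median -2.03) and 18 of 25 (median -1.90). Of all genes, 6.27%, 12.7% and 11.3% were lower on the H-RasV12, myr-Akt and c-Myc arrays. The difference between the classes was not tested. With the floor at 40% of the trimmed mean, the GTPases Irgm2 (-0.34, log2) and Gbp3 (-0.92) lost the call with H-RasV12. So did Oasl2, Sp100 and Cxcl10 among the type I-like members. Medians over members under the floor are bounds, and most GTPases were under it on all 3 transformed arrays.

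Among the Irg proteins, which patrol the vacuoles of intracellular microbes, Irgm1 is a regulator of the others and of autophagy. Its signal was 1361 on the non-transformed, 342.0 on the H-RasV12, 129.5 on the myr-Akt and 128.2 on the c-Myc array. It was thus 3.98-fold, 10.5-fold and 10.6-fold lower, and it is the only GTPase measured above the floor on every array. Igtp (Irgm3), a regulator of the same kind, had 440.0 and 124.2 on the non-transformed and H-RasV12 arrays and was under the floor on the other two. It was 3.54-fold lower with H-RasV12 and at least 4.40-fold lower with myr-Akt and c-Myc. Irgm2, a further regulator, had 253.8 on the non-transformed array and was under the floor on the others, at least 2.54-fold lower in each. Iigp1 (Irga6), an effector that coats vacuoles, had 128.6 on the non-transformed array and was under the floor on the others. Its bound of 1.29-fold is too close to the floor to reach 2-fold.

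The guanylate-binding proteins attack microbes and their vacuoles. Gbp2 had 757.4 on the non-transformed array and was under the floor on all 3 transformed arrays, at least 7.57-fold lower in each. Gbp3 had 379.1 and was likewise under the floor elsewhere, at least 3.79-fold lower. A second Gbp2 probe set read 519.0 on the non-transformed array and 110.0 on the myr-Akt array, 4.72-fold lower, and was under the floor on the other two, at least 5.19-fold lower. The brightest Gbp2 probe set is of a kind (_x_at) that can bind related transcripts, and the Gbp genes are near-identical paralogs in part, so its level is uncertain between them. Both Gbp2 probe sets gave the same direction in all 3 comparisons. With the floor at 40% of the trimmed mean, the bounds of Irgm2 (-0.34, log2) and Gbp3 (-0.92) no longer reached 2-fold in any comparison, and with a pseudocount added instead Irgm2 was not called with H-RasV12 (-0.86).

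The sequences just upstream of the GTPase genes show the elements that the interferon branches are known to bind, and they are given for the 5 GTPases with an entry together with Ifit1, Rsad2 and Irf1, members that differed in how they behaved across the arrays. Each is the 120 bases before the annotated start, 5′ to 3′ on the gene's strand, from RefSeq on mouse build GRCm38.p6. Capitals mark the core of the interferon-stimulated response element, searched as GAAANNGAAA on both strands and shown in reverse complement where the match lies on the other strand, and the gamma-activated site, searched as TTCNNNGAA, which reads the same on both strands.
Irgm1, chr11:48871421-48871540, minus strand: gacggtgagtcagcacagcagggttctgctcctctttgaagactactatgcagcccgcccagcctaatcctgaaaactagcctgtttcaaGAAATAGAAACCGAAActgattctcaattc
Irgm2, chr11:58214857-58214976, plus strand: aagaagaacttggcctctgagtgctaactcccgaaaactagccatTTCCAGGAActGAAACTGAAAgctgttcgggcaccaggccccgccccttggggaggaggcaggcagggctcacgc
Igtp, chr11:58199436-58199555, plus strand: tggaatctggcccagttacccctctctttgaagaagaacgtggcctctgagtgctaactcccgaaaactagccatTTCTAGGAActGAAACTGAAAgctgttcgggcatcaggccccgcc
Gbp2, chr3:142620543-142620662, plus strand: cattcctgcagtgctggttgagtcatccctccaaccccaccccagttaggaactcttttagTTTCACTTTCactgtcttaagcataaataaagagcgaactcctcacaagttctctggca
Gbp3, chr3:142559924-142560043, plus strand: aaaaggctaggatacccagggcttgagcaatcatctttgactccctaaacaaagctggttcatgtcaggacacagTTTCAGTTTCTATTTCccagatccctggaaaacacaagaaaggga
Ifit1, chr19:34640769-34640888, plus strand: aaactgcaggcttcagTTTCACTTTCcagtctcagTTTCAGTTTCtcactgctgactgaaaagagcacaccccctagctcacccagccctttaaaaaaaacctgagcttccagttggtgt
Rsad2, chr12:26456453-26456572, minus strand: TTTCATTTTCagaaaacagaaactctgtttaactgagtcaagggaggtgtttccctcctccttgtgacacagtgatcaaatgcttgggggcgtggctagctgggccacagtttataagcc
Irf1, chr11:53769894-53770013, plus strand: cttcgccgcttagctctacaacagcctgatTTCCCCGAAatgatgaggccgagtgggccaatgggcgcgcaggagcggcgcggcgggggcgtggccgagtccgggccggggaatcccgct

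In these windows the response element core began 30 and 24 bases before the start of Irgm1, as overlapping matches, 64 before Irgm2, 34 before Igtp, 59 before Gbp2, and 45 and 39 before Gbp3, again overlapping. Irgm2 and Igtp also had a gamma-activated site, 75 and 45 bases before the start, just ahead of the response element. Their upstream sequences are near copies: shifted by 30 bases, 103 of 120 compared bases were identical (85.8%). Ifit1 had cores at 104 and 85, Rsad2 had one at 120, and Irf1 had a gamma-activated site at 90 and no core. Over the full window of 250 bases before to 50 after the start, all 5 GTPases with an entry held a core, as did 9 of the 24 listed type I-like members with an entry (37.5%), a count that takes in Isg15, which held a core, and Ifi44, which held none. Of all genes, 1079 of 27025 held a core (3.99%). A gamma-activated site was found in 2 of 5 GTPases, 6 of 24 type I-like members (25.0%) and 2582 of 27025 genes (9.55%). Dhx58, Zbp1, Usp18, Parp9, Parp14, Mx1, Mx2, Ifi27, Rtp4 and Iigp1 had no promoter entry, so no window of theirs was searched. A match describes letters, and no match says only that these letters are not in the window.

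Of the 4 transcription factors, 0 were 2-fold lower on the H-RasV12 array and 2 were on each of the myr-Akt and c-Myc arrays. Of all genes, 6.27%, 12.7% and 11.3% were lower, so 0 of 4 is close to the share with H-RasV12. Irf7, which amplifies type I interferon production, had 421.6 on the non-transformed and 277.7 on the H-RasV12 array and was under the floor on the other two. It was 1.52-fold lower with H-RasV12 and at least 4.22-fold lower with myr-Akt and c-Myc. Irf9, a DNA-binding partner of Stat2, had 636.6, 415.6, 197.1 and 146.9 on the non-transformed, H-RasV12, myr-Akt and c-Myc arrays. It was lower by 1.53-fold, 3.23-fold and 4.33-fold. Stat2 itself had 120.4 on the non-transformed array and was under the floor elsewhere, a bound of only 1.20-fold. Irf1, a factor that type II interferon induces, went another way, with 860.6, 665.2, 1044 and 1296 in the same order. Its signal was 1.29-fold lower with H-RasV12 but 1.21-fold higher with myr-Akt and 1.51-fold higher with c-Myc, all within 2-fold. Irf1 was thus the only one of the 31 members with its highest signal on the c-Myc array.

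Of the 3 sensors and RNA-acting enzymes above the floor, only Ifih1 passed 2-fold. Ifih1 (Mda5), a sensor of long double-stranded RNA, had 779.5, 465.0, 137.8 and 137.3, lower by 1.68-fold with H-RasV12, 5.66-fold with myr-Akt and 5.68-fold with c-Myc. Adar, which edits adenosines in double-stranded RNA, had 728.2, 618.0, 604.8 and 455.9. Its largest difference was 1.60-fold lower, with c-Myc. Eif2ak2 (Pkr), a kinase that stops translation on sensing double-stranded RNA, had 760.3, 763.0, 603.9 and 559.8 by its brightest probe set, at most 1.36-fold lower. Its second probe set read 648.4, 366.6, 284.9 and 250.3 and a further one 285.9, 179.2, 118.3 and 129.3. By the second probe set Eif2ak2 was 1.77-fold lower with H-RasV12, 2.28-fold with myr-Akt and 2.59-fold with c-Myc, so its call turns on the probe set.

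Of 5 members above the floor for Isg15 conjugation, ubiquitin transfer and ADP-ribosylation, 0 were 2-fold lower with H-RasV12 and 4 with each of myr-Akt and c-Myc. Of all genes, 6.27%, 12.7% and 11.3% were lower, so 0 of 5 is close to the share with H-RasV12. Within 2-fold, 4 of the 5 had a lower signal with H-RasV12 too. Usp18, which removes Isg15 from proteins and damps receptor signalling, had 621.8 and 362.5 on the non-transformed and H-RasV12 arrays and was under the floor on the myr-Akt and c-Myc arrays. It was 1.72-fold lower with H-RasV12 and at least 6.22-fold lower with the other two. Herc6, a ligase known for joining Isg15 to proteins in mouse, had 296.1 and 189.5 and was then under the floor, 1.56-fold and at least 2.96-fold lower. Its next probe set had 121.4 on the non-transformed array, too near the floor to read a 2-fold difference. Parp9, an ADP-ribosyltransferase family member, had 709.6, 362.2, 118.5 and 159.7, lower by 1.96-fold, 5.99-fold and 4.44-fold. Its partner Dtx3l, a ubiquitin ligase, had 256.5 and 193.8 and was then under the floor, 1.32-fold and at least 2.56-fold lower. Trim25, the ligase known for activating the sensor Rig-I, stood apart with 2069, 2897, 1805 and 2666. It was 1.40-fold higher with H-RasV12, 1.15-fold lower with myr-Akt and 1.29-fold higher with c-Myc, and its second probe set gave the same directions. With the floor at 40%, the bounds of Herc6 (-0.57, log2) and Dtx3l (-0.36) no longer reached 2-fold with myr-Akt or c-Myc, and Herc6 was at -0.49 with the mean over its probe sets.

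The antiviral effectors and other induced genes included the largest differences of the set. Of 12 above the floor, 7 were at least 2-fold lower with H-RasV12, 12 with myr-Akt and 11 with c-Myc, with medians of -1.10, -2.25 and -2.55. The shares of all genes that were lower were 6.27%, 12.7% and 11.3%. Ifi27, a mitochondrial protein of the interferon alpha-inducible family, had 3580, 2311 and 159.2 on the non-transformed, H-RasV12 and myr-Akt arrays and was under the floor on the c-Myc array. It was 1.55-fold lower with H-RasV12, 22.5-fold lower with myr-Akt and at least 35.8-fold lower with c-Myc. Its second probe set gave 1.52-fold, at least 18.7-fold and at least 18.7-fold. Xaf1, a pro-apoptotic partner of Xiap, had 1975 and 875.6 on the non-transformed and H-RasV12 arrays and was under the floor on the other two. It was 2.26-fold lower with H-RasV12 and at least 19.7-fold lower with myr-Akt and c-Myc. The second Xaf1 probe set was 1.98-fold lower with H-RasV12, just short of 2-fold, and at least 2.61-fold lower with the other two. Rtp4, a chaperone for receptors, had 927.9 and 807.6 and was then under the floor, 1.15-fold lower with H-RasV12 and at least 9.28-fold with the others. These members kept signals well above the floor with H-RasV12 and lost them to under it, or close to it, with myr-Akt and c-Myc.

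Ifit1, which binds foreign RNA lacking cap methylation, had 1056 and 470.2 on the non-transformed and H-RasV12 arrays and was under the floor on the others. It was 2.25-fold lower with H-RasV12 and at least 10.6-fold lower with myr-Akt and c-Myc. Ifit3, its binding partner, had 595.9 and 192.4 and was then under the floor, 3.10-fold and at least 5.96-fold lower. Ifit2, of the same family, kept its signal on every array, with 704.6, 493.1, 212.6 and 449.8. It was 1.43-fold lower with H-RasV12, 3.31-fold with myr-Akt and 1.57-fold with c-Myc. Ifit2 was thus the Ifit member readable on all 4 arrays. Samd9l, a restriction factor and growth regulator, had 1317 and 389.7 and was then under the floor, 3.38-fold and at least 13.2-fold lower. Oasl2, of the oligoadenylate synthetase family, had 373.4 and 128.7 and was then under the floor, 2.90-fold and at least 3.73-fold lower.

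Rsad2 (viperin), which makes a chain-terminating nucleotide, was slightly higher with H-RasV12. It had 578.7, 698.6 and 151.8 on the non-transformed, H-RasV12 and myr-Akt arrays and was under the floor on the c-Myc array. It was 1.21-fold higher with H-RasV12, 3.81-fold lower with myr-Akt and at least 5.79-fold lower with c-Myc. Its second probe set, dim at 137.2, 177.5 and then under the floor, had the same directions. Bst2 (tetherin), which holds budding virus at the cell surface, had 1657, 906.5, 526.9 and 599.0, lower by 1.83-fold, 3.14-fold and 2.77-fold. Ifi35, an interferon-induced leucine zipper protein, had 3184, 1565, 1251 and 1329, lower by 2.03-fold, 2.54-fold and 2.40-fold. Its second probe set was 1.93-fold, 2.27-fold and 1.98-fold lower, so its H-RasV12 and c-Myc calls sit at the threshold. A further probe set was 1.56-fold, 1.64-fold and 1.93-fold lower, so the myr-Akt call of Ifi35 also turns on the probe set. Sp100, a component of nuclear bodies, had 248.9 on the non-transformed array and was under the floor on the rest, at least 2.49-fold lower in each. Calls ended with the mean over probe sets for Sp100 in each comparison (-0.89, log2), Rsad2 with myr-Akt (-0.85) and Ifi35 with H-RasV12 (-0.87; -0.98 with a pseudocount or 75th percentile scaling), and with the floor at 40% for Sp100 (-0.32) and Oasl2 (-0.90) in each comparison.

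Cxcl10, a chemokine that attracts T cells, did not follow the effectors. It had 212.0 on the non-transformed array, 209.1 on the myr-Akt and 144.5 on the c-Myc array, and was under the floor on the H-RasV12 array. It was at least 2.12-fold lower with H-RasV12, 1.01-fold lower with myr-Akt and 1.47-fold lower with c-Myc. The sign for myr-Akt turns to 0.11 (log2) with scaling to the 75th percentile and 0.24 with quantile normalization, and the H-RasV12 call is lost with the floor at 40% (-0.08), with a pseudocount (-0.67) and with quantile normalization (-0.95).

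**Figure D2:**
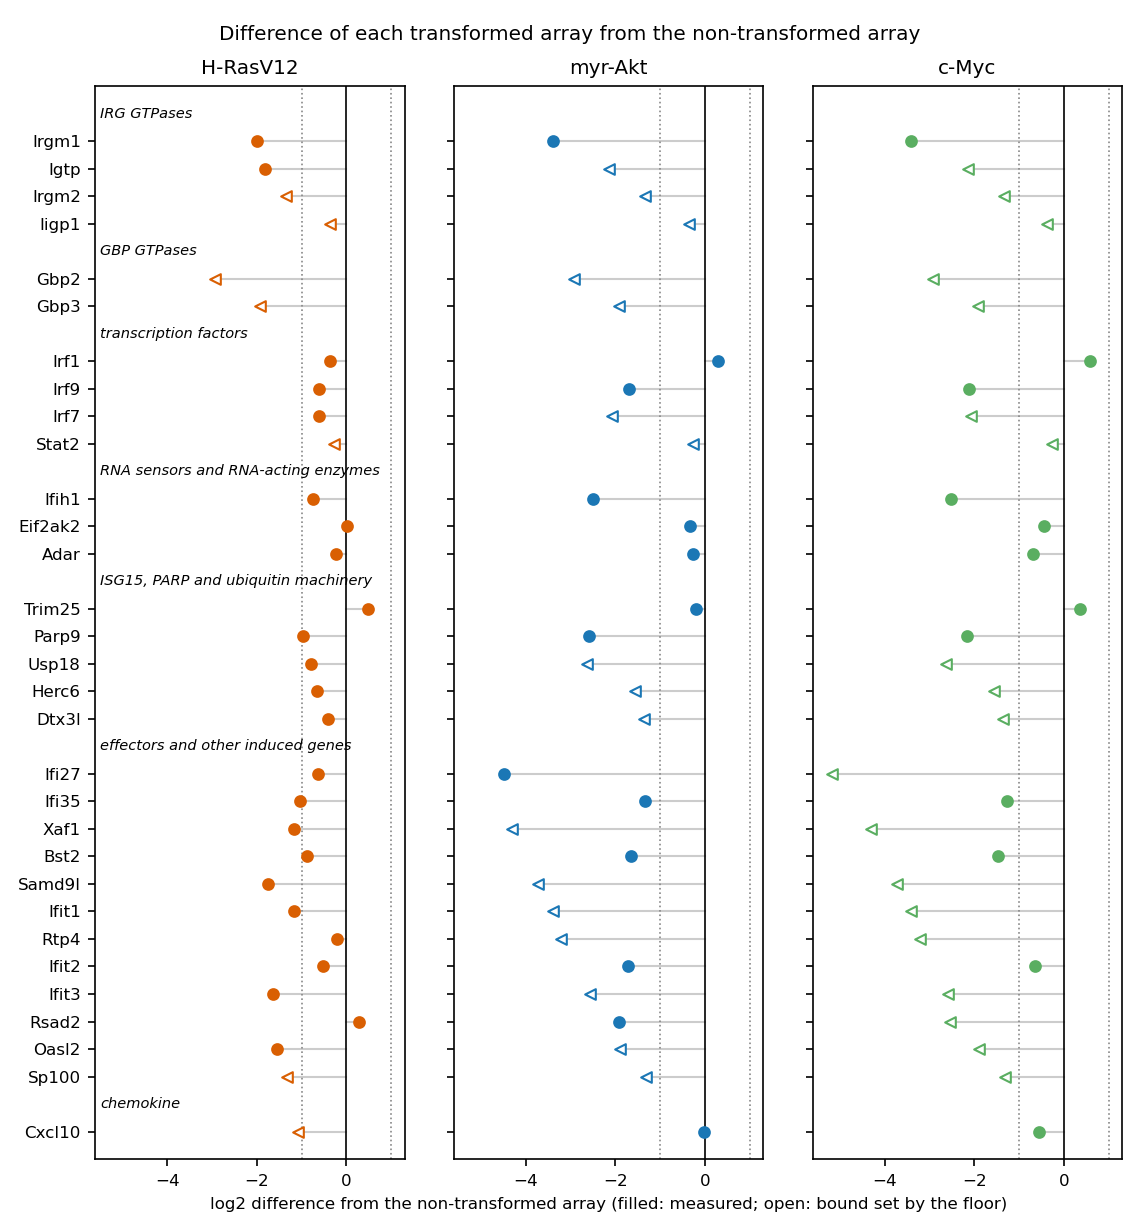
Log2 difference of each of the 31 measurable members from the non-transformed array, for the H-RasV12, myr-Akt and c-Myc arrays, with members grouped by role, open symbols for bounds set by the floor and the 2-fold threshold marked. The effectors reach -5.16 (Ifi27, c-Myc) while Irf1 and Trim25 lie near 0.

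The transformed arrays were then compared with each other, without the non-transformed array. The comparisons of myr-Akt and of c-Myc with H-RasV12 share the H-RasV12 array. Against the H-RasV12 array, 13 of 31 members were at least 2-fold lower with myr-Akt and 1 was higher, where 9.35% of all genes were lower and 4.38% higher. With c-Myc 12 were lower and 0 higher, where 8.76% of all genes were lower and 5.11% higher. The same genes make up 13 and 12 of the 19 members at 200.001 or more on the H-RasV12 array, and 11.4% and 10.6% of all genes that bright. Between the c-Myc and myr-Akt arrays 0 members were lower and 1, Ifit2, was higher by 2.12-fold, where 1.53% of all genes were lower and 2.01% higher. There 17 of the 31 members were under the floor on both arrays.

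Effectors made up 7 of the 13 members lower with myr-Akt and 6 of the 12 lower with c-Myc than with H-RasV12. They were 12 of the 31 measurable members, so these counts are not far from their share of the set. Ifi27 was 14.5-fold lower with myr-Akt and at least 23.1-fold lower with c-Myc than with H-RasV12. Xaf1 was at least 8.76-fold, Rtp4 at least 8.08-fold and Ifit1 at least 4.70-fold lower in each. Rsad2 was 4.60-fold lower with myr-Akt and at least 6.99-fold with c-Myc, Samd9l at least 3.90-fold, Usp18 at least 3.62-fold and Irf7 at least 2.78-fold in each. Ifih1 was 3.37-fold and 3.39-fold lower, Irf9 2.11-fold and 2.83-fold, and Parp9 3.06-fold and 2.27-fold. Irgm1, the single GTPase readable on all arrays, was 2.64-fold and 2.67-fold lower. Irf1 instead was 1.57-fold and 1.95-fold higher than with H-RasV12, and Cxcl10 at least 2.09-fold and 1.45-fold higher. By their brightest probe sets, Gbp2, Gbp3, Irgm2, Iigp1, Sp100 and Stat2 were under the floor on all 3 transformed arrays, which gives no order of those arrays for them. The second Gbp2 probe set was above it with myr-Akt alone (110.0).

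**Figure D3:**
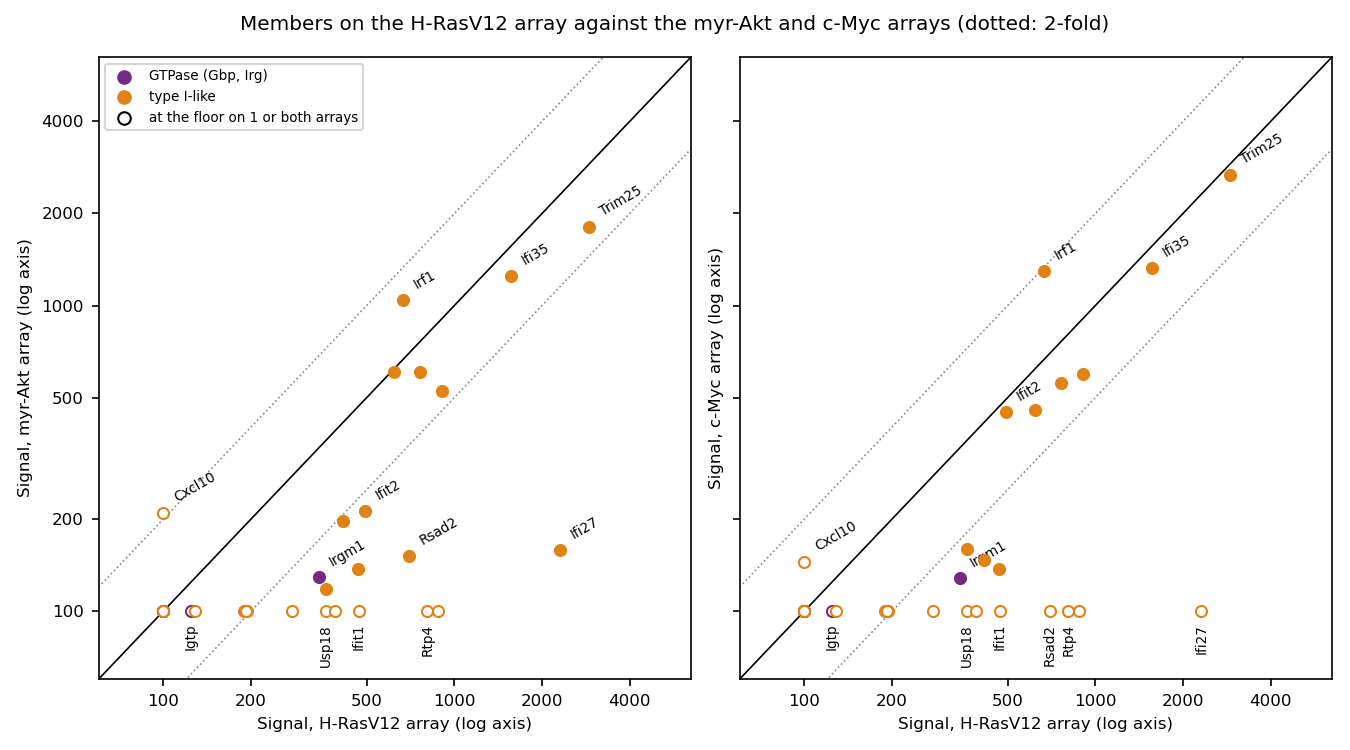
Signals of the 31 measurable members on the H-RasV12 array (horizontal) against the myr-Akt and c-Myc arrays (vertical, 1 panel each), on log axes, with open symbols at the floor for values under it, a solid line for equal signals and dotted lines for 2-fold. In all, 13 and 12 members lie at least 2-fold below the solid line, and the 6 members under the floor on all 3 transformed arrays overlap at the corner.

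A further probe set above the floor was available for 11 members: Adar, Eif2ak2, Herc6, Trim25, Dtx3l, Rsad2, Xaf1, Ifi27, Ifi35, Sp100 and Gbp2. Both probe sets gave the same direction for 10 of them with H-RasV12, 10 with myr-Akt and 11 with c-Myc. The exceptions were Eif2ak2 with H-RasV12 and Adar with myr-Akt, where the brighter probe set differed by 1.00-fold and 1.20-fold. At 2-fold, the brightest probe set called 4, 8 and 8 of the 11, and both probe sets called 1, 5 and 4. Several second probe sets were dim, so their bounds could not reach 2-fold.

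**Figure D4:**
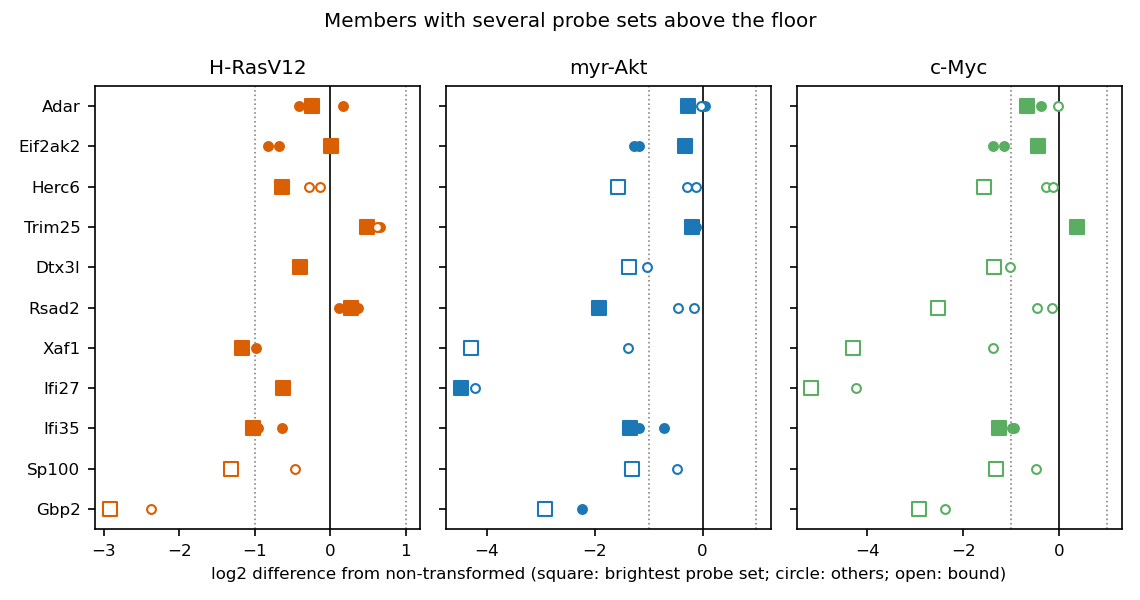
Log2 difference from the non-transformed array (horizontal; the panels differ in scale) for the 11 members with several probe sets above the floor, 1 panel per transformed array, with a square for the brightest probe set, circles for the others, open symbols for bounds and dotted lines at 2-fold. The brightest and next probe set share the direction in 10, 10 and 11 members, and the second Eif2ak2 probe set lies at -0.82, -1.19 and -1.37 while the brightest lies at 0.01, -0.33 and -0.44.

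The pathway around the members was read from lists of its other parts. Among the ligands, 9 of 10 interferon genes with a probe set, Ifnb1 and Ifng included, were under the floor on every array. The other, Ifnz, had 136.8, 233.4, 190.5 and 111.6, all close to the floor and within 2-fold of the non-transformed array. On the non-transformed array, too, Ifnz was the only ligand gene that could be read.

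The receptors and kinases were all measurable. Of 9, the number at least 2-fold lower was 1 with H-RasV12, 2 with myr-Akt and 1 with c-Myc, with 0 higher. These counts are close to the 6.27%, 12.7% and 11.3% of all genes that were lower. A lower signal of any size was read for 6, 8 and 9 of the 9. The list medians were -0.27, -0.63 and -0.50 (log2), where the median of all genes lay at 0.00, -0.02 and 0.00. Ifnar1 had 470.5, 413.0, 348.7 and 411.5, and Ifnar2 had 1830, 972.3, 995.4 and 1297. Ifngr1 had 479.7, 396.6, 337.1 and 396.5, while Ifngr2 had 1936, 918.7, 1248 and 1242, lower by 2.11-fold with H-RasV12. The chains of both receptors were thus above the floor on every array. Jak1 had 1983, 2279, 2087 and 1891, and Tyk2 had 241.5, 275.1, 178.0 and 206.4. Jak2 had 867.1, 942.1, 422.5 and 572.6, lower by 2.05-fold with myr-Akt. Il10rb, a chain shared by the type III interferon receptor, was 2.89-fold lower with myr-Akt and 2.77-fold with c-Myc.

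Of 9 other Stat and Irf factors above the floor, 0 were called 2-fold different in any comparison with the non-transformed array. Irf3, which starts the transcription of type I interferon genes, had 1515, 1559, 1099 and 1643. Of 13 inhibitors of signalling, 0 were called lower in any of the 3 comparisons, with Nlrx1 at a bound of at least 1.98-fold lower in each, and 1, the deacetylase Sirt1, was higher by 2.14-fold with myr-Akt and 2.62-fold with c-Myc. Socs3, a feedback inhibitor of Jak kinases, had 1150, 745.3, 846.6 and 1402, and Socs1 was under the floor on every array. With so few genes, counts of 0 are close to the shares of all genes that were lower (6.27%, 12.7% and 11.3%).

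Among 15 sensors and adaptors upstream of interferon, 2, 3 and 3 were lower and 0 higher with H-RasV12, myr-Akt and c-Myc. Of all genes, 6.27%, 12.7% and 11.3% were lower, and with 15 genes these counts are not far from those shares. The list medians were -0.09, -0.26 and -0.14 (log2). Ddx58 (Rig-I), the sensor of short triphosphate RNA that Trim25 acts on, had 761.4, 522.0, 156.0 and 194.0, 4.88-fold lower with myr-Akt and 3.92-fold with c-Myc, like its relative Ifih1. Ikbke, a kinase that activates Irf3, was 2.58-fold lower with H-RasV12 and at least 2.90-fold with the others. Tmem173 (Sting), which relays the detection of cytosolic DNA, was 2.70-fold lower with myr-Akt.

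Other genes known as interferon-induced, outside the member set, were also listed with earlier results of these data known. They included 3 further GTPases above the floor, of which 2 were lower in each of the 3 comparisons. Ifi47 (Irg-47) had 936.6 and 173.2 and was then under the floor, 5.41-fold lower with H-RasV12 and at least 9.37-fold with the others. Gbp7 had 354.3 and 143.4 and was then under the floor, 2.47-fold and at least 3.54-fold lower. Ifi47 and Gbp7 are named because they were called, and the other GTPase of the 3 was not called in any of these comparisons. Of 52 other interferon-induced genes, 9 were lower and 1 higher with H-RasV12, 22 and 0 with myr-Akt and 18 and 2 with c-Myc. Their medians were -0.22, -0.67 and -0.66 (log2). In the same comparisons, 6.27%, 12.7% and 11.3% of all genes were lower and 2.08%, 4.9% and 4.42% higher. Lgals9, a secreted lectin, had 1510, 625.0, 190.6 and 147.6, lower by 2.42-fold, 7.92-fold and 10.2-fold. Ifitm1, which blocks virus entry, had 1028, 2912, 473.8 and 246.2, higher by 2.83-fold with H-RasV12 and lower by 2.17-fold and 4.18-fold with the others. In the peptide-loading set, which type II interferon also induces, 1, 2 and 1 of 8 were lower, close to the shares of all genes (6.27%, 12.7% and 11.3%), led by Tapbp with H-RasV12 (3.42-fold) and H2-D1 with c-Myc (3.17-fold).

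**Figure D5:**
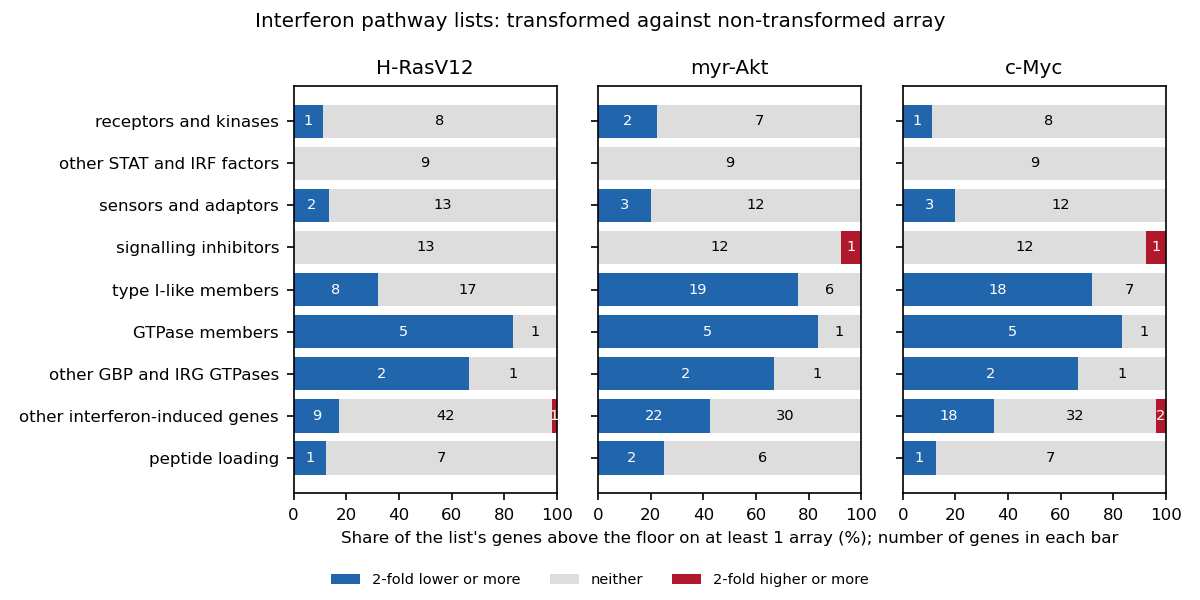
Share (%) of the genes above the floor in each layer of the interferon pathway that were at least 2-fold lower (blue), at least 2-fold higher (red) or neither (grey) on each transformed array against the non-transformed array, with the number of genes in each bar. Lower genes number 5 of 6 GTPase members in each panel and 8, 19 and 18 of 25 type I-like members. Among other Stat and Irf factors 0 of 9 were called lower, and among inhibitors 0 of 13. Of all genes, 6.27%, 12.7% and 11.3% were lower, and with so few genes counts of 0 are close to these shares.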

How the data were processed

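RNA of 4 cultures was measured on 4 single-colour Affymetrix arrays, 1 per group. The authors deposited linear intensity values per probe set, and the submitters' processing notes name MAS5 as the tool. Its version was not given in the sources used here. All arrays were scaled to the same mean after trimming 2% at each end, a floor was set at 20% of that mean (100.001), and values were put on a log2 scale. A gene's brightest single-gene probe set, by mean over arrays, was used. Differences of 2-fold or more were counted, with bounds where 1 side was under the floor, and no test was run. All members above the floor are named, and other pathway genes by a rule of size or as fixed names. The members and lists were chosen with earlier results of these data known. Promoter windows come from RefSeq. Alternatives were floors at 10% and 40%, a pseudocount of 100, the mean over probe sets, 75th percentile scaling, quantile normalization and only members above the floor on all arrays. The counting was tested on simulated data. Python 3.11.15, numpy 2.4.6, pandas 2.3.3 and matplotlib 3.10.9 were used. The number of arrays limits the precision.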

Additional observations from a re-analysis of the deposited data

Results flagged for a closer look

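Ifitm1, an interferon-induced gene outside the member set, differed in opposite directions from the non-transformed array: by 1.50 (log2) on the H-RasV12 array, but by -1.12 on the myr-Akt and -2.06 on the c-Myc array. The difference between the groups was not tested, since each has 1 array.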

How the results depend on the processing

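Medians were rerun for the type I-like and GTPase members against the non-transformed array, and for all members between transformed arrays. None of these changed sign under any alternative run, leaving aside c-Myc against myr-Akt, where the median was 0.00. Medians of the pathway and marker lists were not rerun. With the floor at 40% of the trimmed mean, 5 type I-like members (of 24) were lower with H-RasV12, 3 GTPases (of 5) in each of the 3 comparisons with a GTPase median of -1.14 in each, and 8 and 7 members (of 29) were lower with myr-Akt and c-Myc than with H-RasV12. With the floor at 10%, the GTPase medians were -2.85 with myr-Akt and -3.03 with c-Myc, and 2 members were lower with c-Myc than with myr-Akt. With a pseudocount of 100 that count was 1. Over members above the floor on all 4 arrays, 1, 6 and 5 type I-like members (of 10) were lower with H-RasV12, myr-Akt and c-Myc, with a c-Myc median of -0.97. There the 1 GTPase left, Irgm1, was lower in each comparison, with values of -3.39 and -3.41 for myr-Akt and c-Myc, and 5 and 4 of 11 members were lower with myr-Akt and c-Myc than with H-RasV12. The floor itself moves these values, since a higher floor lowers the largest bound it allows and the last alternative drops members. Of the 13, 24 and 23 members called lower, 8, 18 and 17 kept the call at the 40% floor, 10, 24 and 23 with the pseudocount, 11, 21 and 21 with the mean over probe sets, and 12, 24 and 23 with either other scaling. Of single members, Cxcl10 turned its sign with myr-Akt (0.11 and 0.24 with either other scaling) and Eif2ak2 with H-RasV12 (-0.50 with the mean over probe sets). No paired analysis was possible because each group has 1 array. Signals near the floor limit what can be read for Stat2, Iigp1 and the second probe sets.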
